A study of Macaca fascicularis with 9 samples.

Results

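Genes that sense foreign nucleic acid, relay interferon signals or are induced by interferon were followed in single thalamic nuclei of 9 female cynomolgus monkeys, of which 6 were given an antisense oligonucleotide (ASO) against MALAT1 and 3 saline. The members were taken by symbol. They comprised interferon receptors, Janus kinases (JAK), signal transducers and activators of transcription (STAT), interferon regulatory factors (IRF), interferon-induced effectors (IFI, IFIT, ISG, OAS and MX symbols), Toll-like receptors (TLR) and nucleotide-binding leucine-rich repeat genes (NLRC, NLRP and NLRX). In all, 68 of 29128 features were members, and the 67 described here are the basis of every count of members below. The nuclei came from 3 groups of 3 animals. The saline animals received 4 intravenous doses of vehicle, the ASO animals 1 intrathecal dose of 4 mg of the oligonucleotide, and the OTV animals 4 intravenous doses of OTV:MALAT1 at 30 mpk. OTV stands for oligonucleotide transport vehicle, an oligonucleotide coupled to a carrier protein that engages the transferrin receptor. Tissue was frozen 2 weeks after the last dose. Agent, route and number of doses all differed between the ASO group and both the saline and the OTV group, and cannot be told apart in either comparison.

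In this pathway, TLR3, TLR7, TLR8, IFIH1 and IFI16 recognise RNA or DNA inside cells, and IRF proteins then switch on interferon genes. Secreted interferons bind IFNAR or IFNGR receptors, JAK kinases at those receptors phosphorylate STAT proteins, and STAT2 together with IRF9 turns on effectors such as MX1 and the OAS genes. In the brain, microglia, the main myeloid cells of the tissue, are known for carrying most Toll-like receptors.

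The authors' annotation assigned the 79994 nuclei to oligodendrocytes, oligodendrocyte precursor cells (OPCs), astrocytes, myeloid cells, neurons and nuclei named unknown. Each animal gave between 370 and 1103 myeloid nuclei, with a median of 1543 to 5737 unique molecular identifiers (UMIs) per nucleus. The lowest median was in OTV replicate 3. All 7 myeloid markers present as features were detected in the myeloid nuclei, with summed levels of 5522 to 6285 UMIs per 1000000 (CPM) in saline, 5428 to 6308 CPM in ASO and 4321 to 5198 CPM in OTV animals. Their summed oligodendrocyte markers ranged from 684 to 830 CPM in saline, 878 to 1432 CPM in ASO and 992 to 1579 CPM in OTV animals. MALAT1, the targeted RNA, stood at 31107 to 34680 CPM in the myeloid nuclei of saline animals, 11613 to 30511 CPM in ASO animals and 18146 to 18481 CPM in OTV animals. A total of 760 cell barcodes occurred in 2 or more libraries, 0.959% of the distinct barcodes. Fewer cells of a subtype within a summed cell type and less RNA per cell cannot be told apart.

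Most of the members had their highest level in myeloid nuclei. Counts were summed per animal and cell type and expressed as CPM of that sum. Of the 61 members with at least 100 UMIs in 5 cell types, 46 had their highest mean over the 9 animals in myeloid nuclei, 6 in neurons, 4 in OPCs, 4 in astrocytes and 1 in oligodendrocytes. For 27 members the myeloid level was the highest of the 5 types in 9 of 9 animals. Among the 46, NLRP2, NLRP7, NLRP9, NLRP12 and NLRP13 averaged only 0.530 to 0.999 CPM in myeloid nuclei. For these genes myeloid nuclei were highest in 4 to 6 of 9 animals. The means weight each animal equally, and ASO replicates 1 and 2 had only 18 and 17 neurons. The annotation could itself rest on these genes, so the levels are a description and were not tested. NLRP6 and IFITM5 had 0 UMIs in these types.

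**Figure D1:**
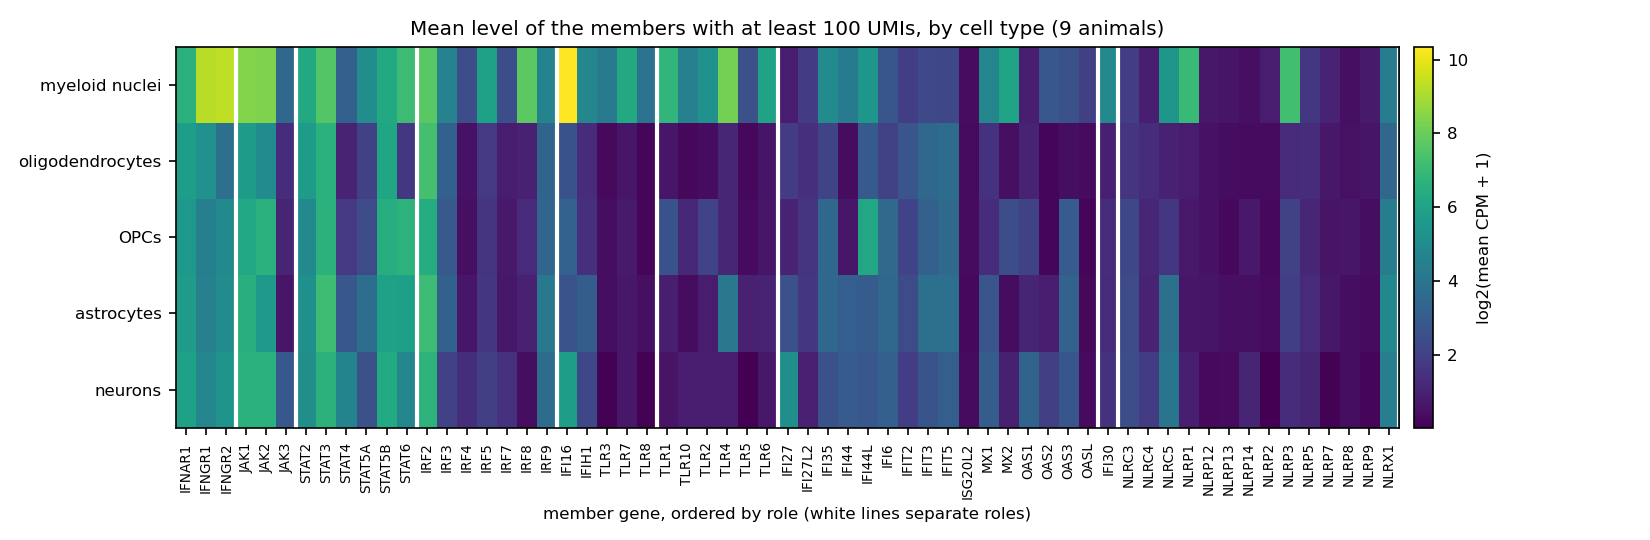
Mean level of each member with at least 100 UMIs (columns, ordered by role) in 5 cell types (rows), as log2 of the mean CPM over 9 animals plus 1. Colours should be compared within a column. The myeloid row is the brightest for 46 of the 61 members, and all sensors, Toll-like receptors and IRF genes are among them.

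The receptors that start the response were all highest in myeloid nuclei. IFNGR1 and IFNGR2, which together form the receptor for interferon gamma, averaged 599 and 660 CPM there. IFNGR1 lay between 21.3 and 36.8 CPM in the other 4 types and IFNGR2 between 13.2 and 40.5 CPM. IFNAR1, a chain of the type I interferon receptor, was spread more evenly, at 101 CPM in myeloid nuclei and 45.2 to 60.6 CPM elsewhere. The kinases JAK1 and JAK2 also led in myeloid nuclei in 9 of 9 animals, at 341 and 321 CPM.

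All 5 nucleic acid sensors and all 6 other Toll-like receptors were highest in myeloid nuclei in 9 of 9 animals. IFI16, a DNA sensor, averaged 1300 CPM there, against 54.4 CPM in neurons and 8.61 CPM or less in the other glia. Its neuron level was uneven, at 195, 145 and 67.0 CPM in ASO replicate 1, OTV replicate 1 and saline replicate 2 and 45.4 CPM or less in the other 6 animals. Endothelial markers in the same neuron sums stood at 1280, 1199 and 552 CPM in those 3 animals and at 4.55 to 221 CPM in the others, and their part in the IFI16 level was not tested. TLR7, a sensor of single-stranded RNA, averaged 76.7 CPM in myeloid nuclei and 0.723 CPM or less in each other type. TLR3, which binds double-stranded RNA, averaged 17.8 CPM and TLR8, the close relative of TLR7, 13.4 CPM. Astrocytes were the second type for TLR4, the receptor for bacterial lipopolysaccharide, with 16.7 CPM against 293 CPM in myeloid nuclei.

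All 7 IRF genes led in myeloid nuclei as well. IRF8, a factor that specifies microglia and other myeloid cells, had the steepest gradient of them, at 214 CPM against 1.37 CPM in OPCs, the next type. IRF2, by contrast, was carried by every type, at 207 CPM in myeloid nuclei and 158 CPM in oligodendrocytes. Among the NLR genes the inflammasome receptors NLRP3 and NLRP1 stood at 148 and 124 CPM in myeloid nuclei and at most 3.10 and 0.830 CPM in the other 4 types.

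Interferon-induced effectors were divided among the cell types. Of the 16 effectors with at least 100 UMIs, 8 led in myeloid nuclei, among them MX2 with 65.0 CPM against 4.73 CPM in OPCs. The 8 include near ties. ISG20L2, taken by its symbol, was at 0.283 CPM against 0.260 CPM in neurons, with myeloid nuclei highest in 3 of 9 animals. IFI27L2 was at 2.51 CPM against 2.12 CPM in astrocytes, with myeloid nuclei highest in 5 of 9. MX1 and MX2 are dynamin-like proteins that block virus particles. IFI44L, an interferon-induced gene often used to read out type I interferon, led in OPCs, at 70.9 CPM against 43.1 CPM in myeloid nuclei. IFIT3 and IFIT5, antiviral proteins, led in astrocytes, at 13.1 and 13 CPM, and IFIT2 in oligodendrocytes, at 5.68 CPM. OAS1, an enzyme that activates RNase L, led in neurons at 9.06 CPM. ISG15, a ubiquitin-like effector, had only 4 UMIs in all myeloid nuclei and was not tested there.

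Among the STAT genes, 4 of 6 led in myeloid nuclei. STAT4, which acts in interleukin-12 signalling of T and natural killer cells, led in neurons at 24.5 CPM. In myeloid nuclei it was at 15.4, 7.86 and 3.98 CPM in saline, 5.68, 3.43 and 25.7 CPM in ASO and 2.10, 7.16 and 1.33 CPM in OTV animals. The groups overlapped, and the highest animal was ASO replicate 3. Myeloid nuclei of that animal also held the highest summed T and natural killer cell markers, 304 CPM against 23.9 to 88.5 CPM in the other 8 animals. The myeloid nuclei fall into clusters 7 and 9 of the authors. In cluster 7 of ASO replicate 3, STAT4 stood at 95.4 CPM beside 162 CPM of CD247, a T cell receptor chain. In cluster 9 STAT4 was between 0.484 and 4.29 CPM in all 9 animals.

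Few members passed the test in myeloid nuclei after OTV. In OTV against saline 1 of 46 tested members was called, and it was lower, where 12% of all 12667 genes tested were called and 7.26% were called lower. The median log2 fold change was 0.06 over the tested members and -0.03 over all genes tested. The called member was IFNGR1, at 827, 695 and 774 CPM in saline, 535, 520 and 767 CPM in ASO and 498, 349 and 426 CPM in OTV animals. All OTV animals lay below the other 6, while ASO overlapped saline. IFNGR1 fell by 0.90 on the log2 scale against saline (SE 0.18, 1.87-fold lower, adjusted p = 0.0101 by edgeR's quasi-likelihood test, Benjamini-Hochberg adjusted over all genes). The call was lost without OTV replicate 2 (-0.73, adjusted p = 0.0515). IFNGR2, its partner chain, was at 533, 666 and 632 CPM in saline and 666, 708 and 595 CPM in OTV animals, and the groups overlapped (0.05, SE 0.14, adjusted p = 0.842). The summed myeloid markers of these nuclei were also lowest in the OTV animals, at 4321 to 5198 CPM against 5428 to 6308 CPM in the other 6. Oligodendrocyte markers summed to 992 to 1579 CPM in OTV against 684 to 830 CPM in saline animals. The part of either in the IFNGR1 result was not tested.

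TLR3 was the member that rose in myeloid nuclei, in OTV against ASO. Its level was 17.1, 8.99 and 15.3 CPM in saline, 7.10, 15.6 and 10.7 CPM in ASO and 31.7, 34.9 and 18.6 CPM in OTV animals. All OTV animals lay above the other 6. The rise against ASO was 1.34 on the log2 scale (SE 0.37, 2.54-fold, adjusted p = 0.0272 by edgeR's quasi-likelihood test), and the difference from saline was 1.03 (SE 0.37, adjusted p = 0.0954). The call was lost without ASO replicate 1 or 3 or OTV replicate 1 or 2 (adjusted p = 0.0953, 0.0718, 0.0813 and 0.0807) and in cluster 9 alone (1.15, adjusted p = 0.0958), and it was kept in cluster 7 alone. These 2 clusters of the authors held different shares of the groups. Cluster 9 made up 62%, 57% and 62.5% of the myeloid nuclei in ASO, 39.9%, 46% and 23.7% in saline and 20.3%, 35.4% and 42.9% in OTV animals, and cluster 7 the rest. It was the only one of 46 members called in this comparison, beside 20.5% of all genes tested (9.42% higher). OTV replicates 1 to 3 also held more of the oligodendrocyte RNAs MOBP and ST18 in their myeloid nuclei, 67.1 to 133 CPM and 134 to 183 CPM. The other 6 animals held 14.6 to 25.9 CPM of MOBP and 13.7 to 77.7 CPM of ST18. TLR3 itself was at 0.204 CPM in oligodendrocytes, and the part of those RNAs in the TLR3 result was not tested.

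**Figure D2:**
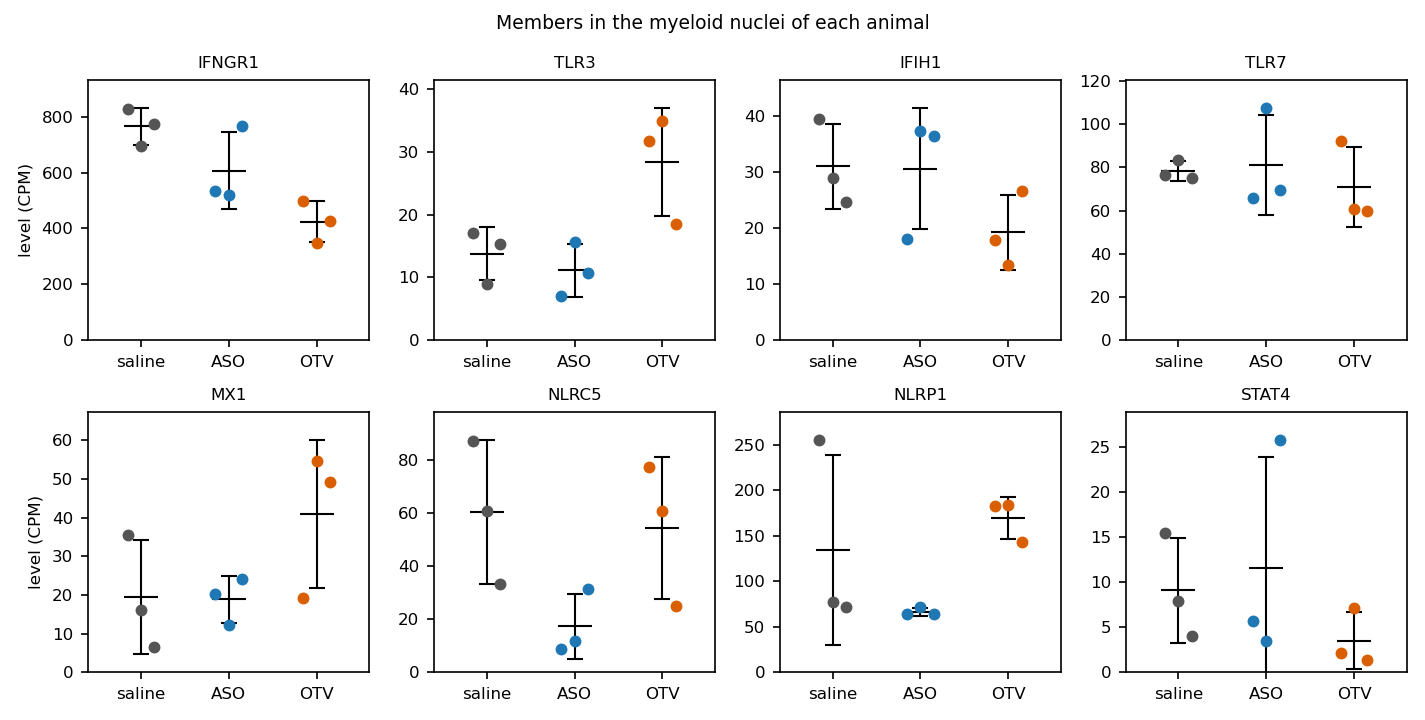
Level in CPM (vertical axes, each from 0) of 8 members in the myeloid nuclei of each animal, by group. Points are animals, long bars group means and whiskers 1 SD (n = 3). IFNGR1 is lowest and TLR3 highest in the 3 OTV animals, while IFIH1, TLR7, MX1 and STAT4 overlap between the OTV and saline groups.

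The remaining sensors, factors and effectors of the type I response did not pass the test in myeloid nuclei. IFIH1, the cytosolic receptor for long double-stranded RNA, was at 39.5, 28.9 and 24.6 CPM in saline and 17.8, 13.4 and 26.5 CPM in OTV animals, which overlapped (-0.80, SE 0.35, adjusted p = 0.162). TLR7 was at 76.4, 83.4 and 75.0 CPM in saline, 65.7, 108 and 69.5 CPM in ASO and 92.3, 60.8 and 59.7 CPM in OTV animals. The TLR7 groups overlapped throughout.

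IRF3 and IRF7, the factors that induce type I interferon, overlapped between groups. IRF3 was at 18.7, 26.7 and 10.6 CPM in saline and 30.1, 21.5 and 22.6 CPM in OTV animals. IRF7 was at 7.28, 4.77 and 0.664 CPM in saline and 4.46, 8.05 and 3.98 CPM in OTV animals, resting on 111 UMIs in all. The myeloid factor IRF8 was at 155, 160 and 325 CPM in saline, 197, 205 and 193 CPM in ASO and 192, 309 and 191 CPM in OTV animals, and saline replicate 3 was the highest of the 9.

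STAT2 and IRF9 act in the same interferon-driven complex. STAT2 was at 58.5, 73.9 and 60.4 CPM in saline and 78.6, 84.1 and 99.5 CPM in OTV animals. These groups did not overlap, and the difference of 0.38 on the log2 scale did not pass the test (SE 0.19, adjusted p = 0.215). IRF9 was at 32.2, 27.8 and 21.2 CPM in saline and 17.3, 26.0 and 10.6 CPM in OTV animals, which overlapped (-0.64, SE 0.36, adjusted p = 0.27).

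MX1 was at 35.5, 16 and 6.64 CPM in saline, 20.2, 12.2 and 24.2 CPM in ASO and 19.1, 54.6 and 49.1 CPM in OTV animals. Its groups overlapped (0.89, SE 0.59, adjusted p = 0.363). The summed level of the 18 effector members in myeloid nuclei was 268, 162 and 136 CPM in saline, 223, 180 and 246 CPM in ASO and 210, 277 and 268 CPM in OTV animals. These sums overlapped across all 3 groups.

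**Figure D3:**
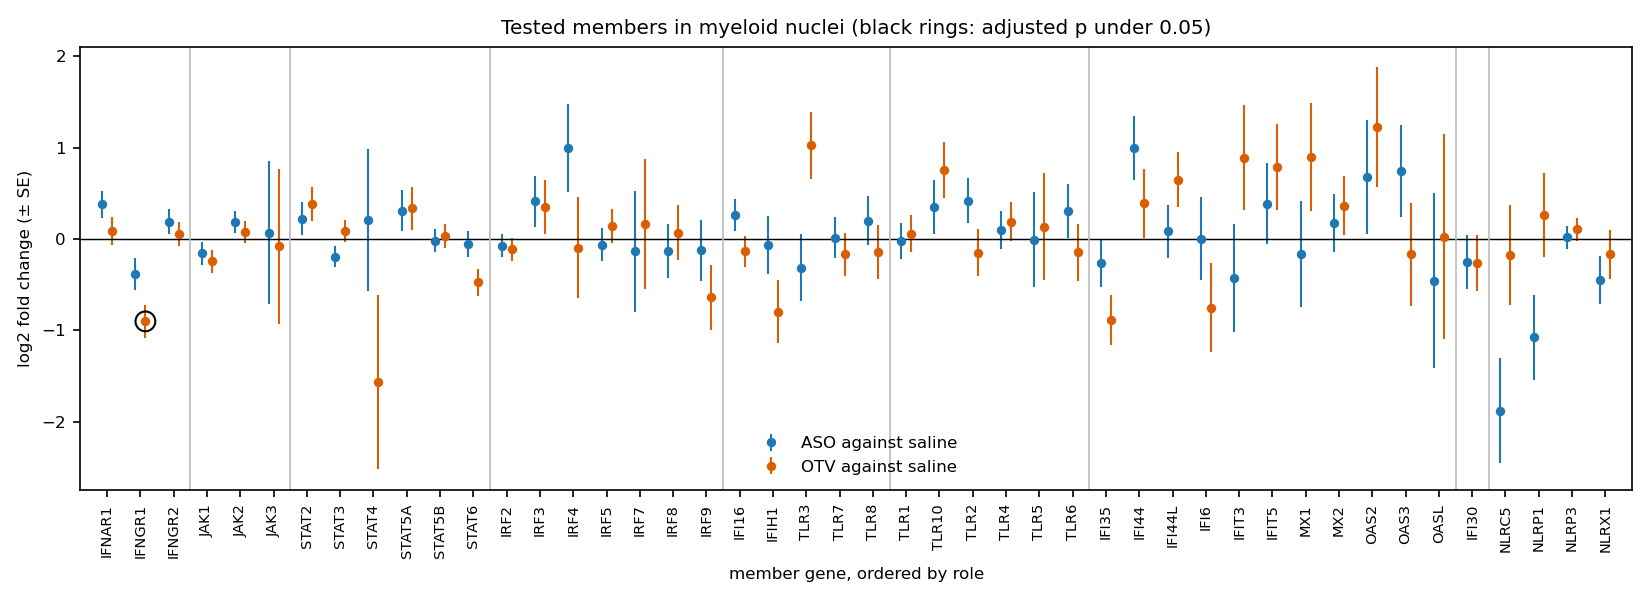
Log2 fold change (vertical axis) of each of the 46 tested members in myeloid nuclei for ASO against saline (blue) and OTV against saline (orange). Whiskers are 1 SE, grey lines separate roles, and black rings mark an adjusted p under 0.05. The only ring marks IFNGR1 in OTV animals.

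After intrathecal ASO no member was called in any of the 4 cell types by edgeR's quasi-likelihood test. At an unadjusted p under 0.05, myeloid nuclei had 4 of 46 members, oligodendrocytes 5 of 58, OPCs 4 of 34 and astrocytes 1 of 31. The share of all genes tested at the same unadjusted p was 10.3%, 11.9%, 9.61% and 6.1%, in that order. Over all genes tested the called share was 0.197%, 0.394%, 0.262% and 0.0147% in these types, in that order. DESeq2 called 1 member in myeloid nuclei, NLRC5, 1 in OPCs, IFI44L, and 0 in oligodendrocytes and astrocytes, beside 1.28%, 1.21%, 3.31% and 0.46% of all genes to which DESeq2 gave an adjusted p in these types. NLRC5, an activator of major histocompatibility class I genes, was at 87.3, 60.9 and 33.2 CPM in the myeloid nuclei of saline, 8.88, 11.9 and 31.5 CPM of ASO and 77.3, 60.8 and 25.2 CPM of OTV animals. All ASO animals lay below the saline animals, by 1.88 on the log2 scale with edgeR (SE 0.57, adjusted p = 0.302), and OTV overlapped saline. DESeq2 gave an adjusted p of 0.0402 and cluster 9 alone one of 0.0423.

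The other 3 members at an unadjusted p under 0.05 in myeloid nuclei after ASO were IFNAR1, IFI44 and NLRP1. IFNAR1 was at 84.5, 87.1 and 91.6 CPM in saline and 127, 106 and 119 CPM in ASO animals, without overlap (0.38, SE 0.15, adjusted p = 0.413). IFI44 was at 18.5, 7.30 and 10.6 CPM in saline and 28.8, 22.7 and 24.6 CPM in ASO animals, also without overlap (1.00, SE 0.35, adjusted p = 0.349). NLRP1 was at 255, 76.9 and 72.4 CPM in saline, 64.6, 71.3 and 63.7 CPM in ASO and 183, 183 and 143 CPM in OTV animals. Saline replicate 1 stood far above the other saline animals, and the ASO animals lay below all of them (-1.08, SE 0.46, adjusted p = 0.479).

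OPCs had the most members called in OTV against saline, and also the highest share of all genes called in the 4 types. The members called were 6 of 34 (17.6%), beside 22.1% of all 14894 genes tested. Of these, 5 rose (10.2% of all genes tested rose) and 1 fell (11.9%). In OTV against ASO 5 were called, beside 27.2%, with 4 of them higher (12.7% of all genes) and 1 lower (14.4%). The member that fell was STAT6, which carries interleukin-4 and interleukin-13 signals. STAT6 in OPCs was at 121, 128 and 116 CPM in saline, 136, 117 and 165 CPM in ASO and 49.6, 42.6 and 38.5 CPM in OTV animals, with every OTV animal below the other 6. It fell by 1.42 on the log2 scale against saline (SE 0.15, 2.67-fold lower, adjusted p = 0.000117 by edgeR's quasi-likelihood test) and by 1.56 against ASO (SE 0.15, adjusted p = 5.23e-05). Astrocytes showed the same order, at 58.9, 74.8 and 58.2 CPM in saline, 85.5, 65.9 and 75.0 CPM in ASO and 29.7, 29.3 and 32.1 CPM in OTV animals. There STAT6 fell by 1.03 against saline (SE 0.16, adjusted p = 0.00409) and by 1.21 against ASO (SE 0.16, adjusted p = 0.00148). Oligodendrocyte markers in astrocytes summed to 327 to 384 CPM in saline, 421 to 675 CPM in ASO and 451 to 695 CPM in OTV animals. Mural cell markers summed to 142 to 168, 183 to 199 and 113 to 131 CPM, in that order. The summed astrocyte markers overlapped between the groups. The part of these markers in the STAT6 result was not tested.

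The STAT6 calls in OPCs and astrocytes were kept when any 1 animal was left out and in the 5 other alternative fits reported here. In myeloid nuclei STAT6 was at 165, 159 and 128 CPM in saline and 125, 121 and 90.2 CPM in OTV animals, which did not overlap (-0.47, SE 0.15, adjusted p = 0.0634 by edgeR's quasi-likelihood test). In oligodendrocytes it was at 3.54 CPM or less in all 9 animals. In RefSeq STAT6 overlaps NAB2. The gene models used for counting could not be settled, and a strand setting was not given in the sources used here. On the other side of STAT6, LRP1, a lipoprotein receptor gene that does not overlap it, rose in OTV against saline by 0.59 in OPCs (SE 0.11, adjusted p = 0.00305) and 1.40 in astrocytes (SE 0.25, adjusted p = 0.00661), opposite to STAT6. NAB2, a corepressor, differed by 0.67 in OPCs (SE 0.32, adjusted p = 0.157) and 0.16 in astrocytes (SE 0.48, adjusted p = 0.852) in OTV against saline.

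Several signalling members rose in OPCs by less than 2-fold. Marker sums of the OPC nuclei also differed between the groups. All 4 OPC markers were detected and summed to 5659 to 6474 CPM in saline, 6450 to 6773 CPM in ASO and 4253 to 5290 CPM in OTV animals. The 5 oligodendrocyte markers present as features summed to 359 to 598 CPM in saline, 783 to 1033 CPM in ASO and 696 to 1055 CPM in OTV animals. The part of either in the OPC results was not tested. JAK2 was at 89.2, 87.6 and 93.4 CPM in saline, 83.2, 85.8 and 81.8 CPM in ASO and 116, 123 and 114 CPM in OTV animals, with all OTV animals above the other 6. JAK2 rose by 0.43 on the log2 scale against saline (SE 0.10, adjusted p = 0.00861 by edgeR's quasi-likelihood test) and by 0.59 against ASO (SE 0.10, adjusted p = 0.00131). The first of these calls was lost when counts were thinned to equal totals (0.32, adjusted p = 0.0907). STAT3, a mediator of interleukin-6 family signals, was at 84.6, 86.7 and 88.0 CPM in saline, 92.0, 84.9 and 96.0 CPM in ASO and 97.6, 121 and 137 CPM in OTV animals. All OTV animals were the highest, and STAT3 rose by 0.49 against saline (SE 0.12, adjusted p = 0.016) and 0.47 against ASO (SE 0.12, adjusted p = 0.0168). Both STAT3 calls were lost in fits without 1 animal: OTV replicate 2 or 3 for both, saline replicate 1 or 2 for the first and ASO replicate 1 or 2 for the second, with adjusted p from 0.055 to 0.0747. The second was also lost after thinning (0.0683).

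STAT2 in OPCs was at 25.5, 26.3 and 19.5 CPM in saline, 32.8, 22.3 and 26.0 CPM in ASO and 29.2, 41.7 and 49.7 CPM in OTV animals. It rose by 0.77 on the log2 scale against saline (SE 0.22, adjusted p = 0.0266 by edgeR's quasi-likelihood test), without overlap. This call was lost without any 1 saline animal or OTV replicate 2 or 3, with adjusted p from 0.058 to 0.104. Against ASO the groups overlapped, with 0.64 (SE 0.22, adjusted p = 0.0471). That call was lost without any 1 of 6 animals (ASO replicate 2 or 3, saline replicate 1 or 2, OTV replicate 2 or 3), with adjusted p from 0.0673 to 0.167, and with DESeq2 (0.0527), DESeq2's size factors (0.0506), the 2 compared groups alone (0.0727) and thinning (0.155). In RefSeq STAT2 overlaps IL23A and APOF.

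**Figure D4:**
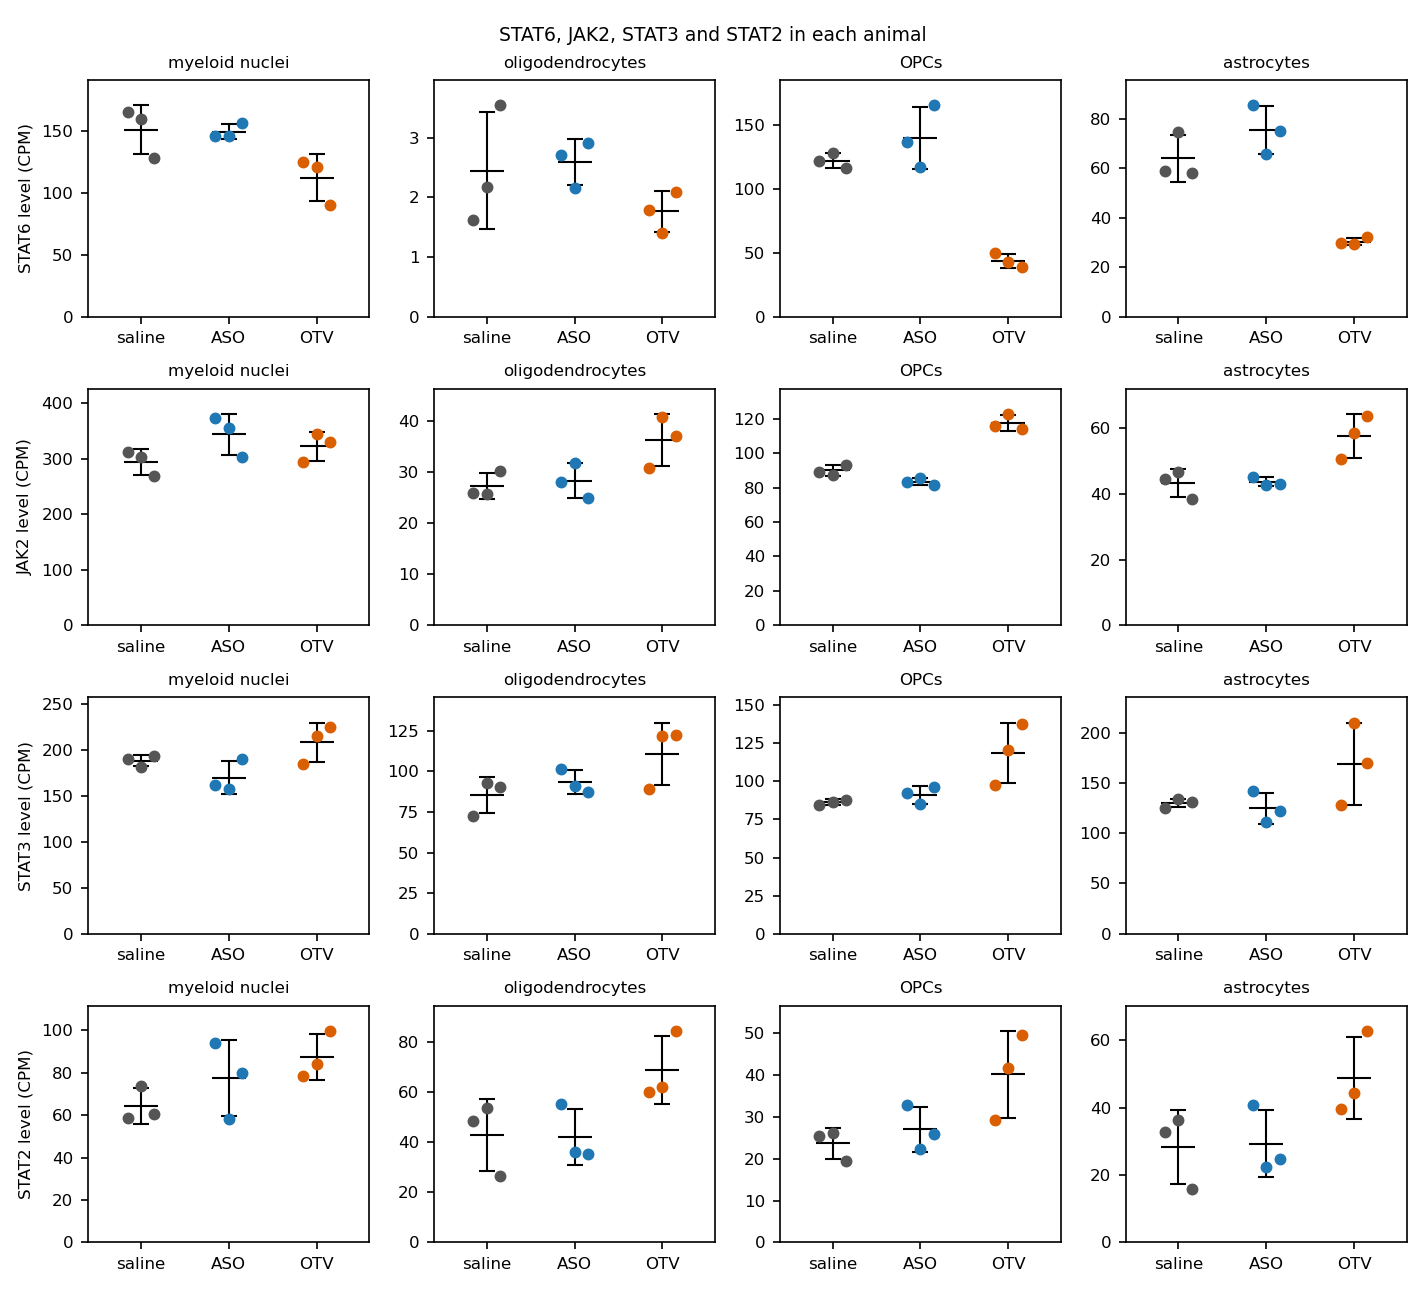
Levels in CPM (vertical axes, each from 0) of STAT6, JAK2, STAT3 and STAT2 (rows) in 4 cell types (columns) by group. Points are animals, long bars group means and whiskers 1 SD (n = 3). STAT6 of the OTV animals lies below all others in OPCs and astrocytes, and JAK2 of the OTV animals lies above all others in both.

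The effectors that rose in OPCs were MX2 and IFI44L against saline and OAS1 against ASO. MX2 was at 1.04, 0.542 and 1.10 CPM in saline, 6.56, 3.53 and 1.14 CPM in ASO and 5.55, 7.11 and 16 CPM in OTV animals. The 3 saline animals were the lowest, and the OTV group rose by 3.45 on the log2 scale (SE 0.68, adjusted p = 0.00485 by edgeR's quasi-likelihood test). The call was kept when any 1 animal was left out and in the 5 other alternative fits reported here. It rests on 172 UMIs in all OPC nuclei, 16 of them in saline. MX2 averaged 65.0 CPM in myeloid nuclei. The summed myeloid markers in OPCs were 39.3 to 108 CPM in saline, 54.5 to 77.9 CPM in ASO and 39.5 to 63.9 CPM in OTV animals, and their part in the MX2 result was not tested.

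IFI44L in OPCs was at 54.5, 43.7 and 36 CPM in saline, 113, 89.2 and 67.5 CPM in ASO and 68.8, 91.9 and 73.7 CPM in OTV animals. Both treated groups lay above saline without overlap. The OTV group rose by 0.84 (SE 0.21, adjusted p = 0.0165 by edgeR's quasi-likelihood test), which was lost without saline replicate 2 (0.0579) or OTV replicate 2 (0.0655). ASO against saline gave 0.95 (SE 0.20, adjusted p = 0.103), which DESeq2 called (adjusted p = 0.00683). It also passed with no filter on low counts (adjusted p = 0.0462) and without ASO replicate 3 (adjusted p = 0.0464). OAS1 was at 2.67, 3.58 and 2.20 CPM in saline, 0.743, 1.67 and 1.78 CPM in ASO and 4.12, 4.00 and 6.41 CPM in OTV animals, each group apart from the next. It rose by 1.87 in OTV against ASO (SE 0.43, adjusted p = 0.00841), a call kept when any 1 animal was left out and in the 4 other alternative fits reported here that gave a value.

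**Figure D5:**
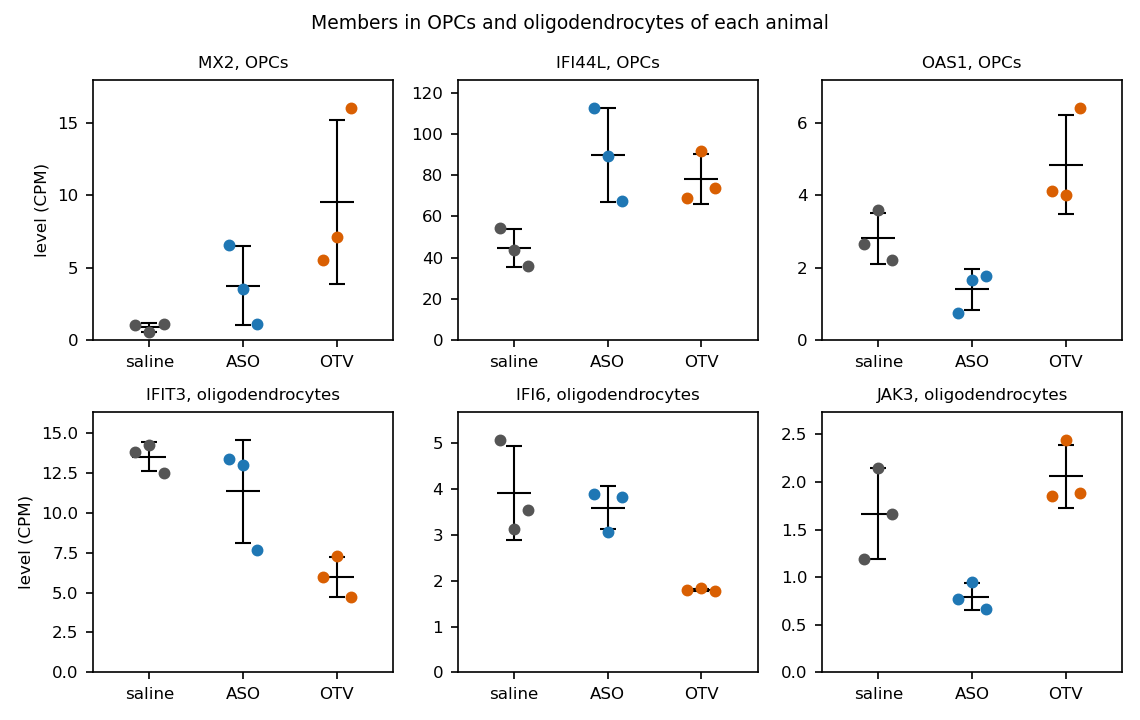
Level in CPM (vertical axes, each from 0) of MX2, IFI44L and OAS1 in OPCs and of IFIT3, IFI6 and JAK3 in oligodendrocytes, by group. Points are animals, long bars group means and whiskers 1 SD (n = 3). The OTV points lie above all saline points for the 3 OPC genes and below all other points for IFIT3 and IFI6.

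In oligodendrocytes, 2 of 58 members were called in OTV against saline, both lower, beside 19.2% of all 20036 genes tested, or 11.7% for genes called lower. These were IFIT3 and IFI6, interferon-induced antiviral genes. IFIT3 was at 13.8, 14.2 and 12.5 CPM in saline, 13.3, 13 and 7.63 CPM in ASO and 5.95, 7.26 and 4.73 CPM in OTV animals. The OTV animals were the lowest 3, at -1.13 on the log2 scale against saline (SE 0.26, adjusted p = 0.0154 by edgeR's quasi-likelihood test). The IFIT3 call was lost without saline replicate 2 (0.0502) or OTV replicate 3 (0.055) and after thinning (0.0734). IFI6, a protein of the endoplasmic reticulum and mitochondria, was at 5.06, 3.12 and 3.54 CPM in saline, 3.90, 3.05 and 3.82 CPM in ASO and 1.79, 1.83 and 1.77 CPM in OTV animals. It fell by 1.09 against saline (SE 0.26, adjusted p = 0.0174), with the call lost without saline replicate 1 (0.0807) or OTV replicate 3 (0.0542) and after thinning (0.163).

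In OTV against ASO 7 of 58 oligodendrocyte members were called, 4 higher and 3 lower, beside 26.3% of all genes tested (11.2% higher and 15.1% lower). IFI6, IFIT3 and NLRP5 were lower and JAK3, STAT5B, TLR2 and TLR5 higher. JAK3, the kinase of cytokine receptors with the common gamma chain, was at 1.19, 2.15 and 1.67 CPM in saline, 0.776, 0.948 and 0.667 CPM in ASO and 1.85, 2.44 and 1.88 CPM in OTV animals. ASO animals lay below all others, and OTV against ASO gave 1.43 (SE 0.31, adjusted p = 0.0089 by edgeR's quasi-likelihood test). This call was kept when any 1 animal was left out, and JAK3 gave no value after thinning. STAT5B, which carries growth hormone and interleukin-2 signals, was at 63.1, 74.1 and 71.9 CPM in saline, 60.6, 63.5 and 50.2 CPM in ASO and 72.2, 75.6 and 81.1 CPM in OTV animals. OTV and ASO did not overlap (0.47, SE 0.12, adjusted p = 0.018), and the call was lost without ASO replicate 3 (0.0535) or OTV replicate 3 (0.0557) and after thinning (0.051). In RefSeq STAT5B overlaps LOC102120556, a symbol absent from the features that lies between STAT5B and STAT3. The member STAT5A was not matched in RefSeq by symbol, and whether LOC102120556 is the same gene was not checked.

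The remaining calls included members at low levels. NLRP5, known from oocytes, was at 2.41, 1.62 and 2.43 CPM in ASO and 0.978, 0.671 and 1.08 CPM in OTV animals, without overlap. It fell by 1.14 on the log2 scale (SE 0.28, adjusted p = 0.0166 by edgeR's quasi-likelihood test), lost without ASO replicate 1 or 3 or OTV replicate 2 (0.0583, 0.0541 and 0.056) and after thinning (0.316). TLR2, a receptor for bacterial lipoproteins, was at 0.143, 0.103 and 0.107 CPM in ASO and 0.306, 0.427 and 0.699 CPM in OTV animals, without overlap and on 76 UMIs over the 3 groups. It rose by 2.02 (SE 0.54, adjusted p = 0.0235), lost without any 1 ASO animal or OTV replicate 2 or 3 (adjusted p from 0.0522 to 0.0892). TLR2 was not called in either treated group against saline. Myeloid markers summed to 18.3 to 26.4 CPM in the oligodendrocytes of ASO and 24.8 to 33.5 CPM in those of OTV animals, which overlapped. Border macrophage markers there summed to 5.99 to 8.76 CPM in saline, 3.73 to 5.10 CPM in ASO and 7.82 to 9.30 CPM in OTV animals. The ASO and OTV ranges did not overlap, while the saline and OTV ranges did. The part of either in the TLR2 result was not tested. IFI6 fell by 0.90 against ASO (SE 0.25, adjusted p = 0.0262), lost without ASO replicate 1 or 3 or any 1 OTV animal (0.0593 to 0.0796) and after thinning (0.295). IFIT3 fell by 0.84 against ASO (SE 0.25, adjusted p = 0.0373), lost without ASO replicate 1 or 2, saline replicate 1 or 2 or OTV replicate 1 or 3 (0.0536 to 0.116), with the 2 compared groups alone (0.0631) and after thinning (0.224). TLR5, a flagellin receptor, rose by 1.61 (SE 0.52, adjusted p = 0.0474), with groups that overlapped, and is named after its values were seen. The TLR5 call was lost with DESeq2 (adjusted p = 0.109), with no low-count filter (0.0704) and without any 1 ASO animal, any 1 saline animal or OTV replicate 3 (0.0524 to 0.174).

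In astrocytes, 1 of 31 members was called in OTV against saline, STAT6, which was lower, beside 15.4% of all 13608 genes tested (9.12% lower). In OTV against ASO 3 were called, 1 higher and 2 lower, beside 22% (9.51% higher and 12.5% lower), and the additional ones were TLR4 and JAK2. TLR4 was at 14.8, 6.98 and 9.33 CPM in saline, 46.5, 42.3 and 10.0 CPM in ASO and 6.23, 5.32 and 8.38 CPM in OTV animals. ASO replicates 1 and 2 stood above all other animals, while ASO replicate 3 lay within the saline range. TLR4 fell by 2.16 on the log2 scale in OTV against ASO (SE 0.57, adjusted p = 0.0259 by edgeR's quasi-likelihood test), lost without ASO replicate 1 or 2 or any 1 OTV animal (adjusted p from 0.0641 to 0.0828). Of the 4 border macrophage markers, MRC1 alone was also highest in these animals, at 203, 299 and 35.1 CPM in the astrocytes of saline, 354, 337 and 42.8 CPM of ASO and 204, 193 and 203 CPM of OTV animals. CD163 and F13A1 were at 1.73 CPM or less and LYVE1 at 15.1 CPM or less in all 9 animals. The 7 myeloid markers summed to 29.6, 17.0 and 35.6 CPM in ASO and 23.4 to 36.4 CPM in OTV animals. The part of MRC1 or of myeloid RNA in the TLR4 result was not tested. JAK2 was at 45.2, 42.8 and 43.0 CPM in ASO and 50.6, 58.6 and 63.9 CPM in OTV animals, without overlap. It rose by 0.49 (SE 0.15, adjusted p = 0.044), and the call was lost without ASO replicate 1, 2 or 3, saline replicate 1 or 2, or OTV replicate 1, 2 or 3 (adjusted p from 0.051 to 0.122), with no low-count filter (0.122), with the 2 compared groups alone (0.0699) and after thinning (0.115).

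Whether members responded differently in myeloid nuclei than in the other 3 types was tested with an interaction term over 36 sums with the animal as a block. By edgeR's quasi-likelihood test no member of 54 was called in OTV against saline, with 2.2% of all genes called. At an unadjusted p under 0.05 there were 10 members, beside 15% of all genes. ASO against saline also gave 0, beside 0.6% of all genes called, with 9 members at an unadjusted p under 0.05 beside 10% of all genes. No second tool was run on the interaction. In OTV against ASO 3 of 54 were called, beside 6.12%. JAK2 differed by -0.64 (SE 0.13, adjusted p = 0.00315), with a myeloid change of -0.11 against rises in OPCs and astrocytes, and was kept when any 1 animal was left out, with no low-count filter and with DESeq2's size factors. In oligodendrocytes, also among the other types, edgeR did not call JAK2 in OTV against ASO, while DESeq2 did. IFIT3 differed by 1.70 (SE 0.49, adjusted p = 0.0382) and STAT2 by -0.60 (SE 0.18, adjusted p = 0.0416). The IFIT3 call was lost without ASO replicate 1, 2 or 3, saline replicate 1 or OTV replicate 1 or 2, with differences of 0.90 to 1.89 and adjusted p from 0.056 to 0.457, and with no low-count filter (0.0542). The STAT2 call was lost without ASO replicate 1, 2 or 3, saline replicate 2 or OTV replicate 1, 2 or 3, with adjusted p from 0.0521 to 0.198, with no low-count filter (0.0731) and with DESeq2's size factors (0.0708).

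Neurons were tested too, a choice made once the data had been seen. ASO replicates 1 and 2 had only 18 and 17 of them. Of the 17 members tested in neurons, 1 was called in OTV against saline, beside 6.82% of all genes tested. It was IRF2, a regulator that competes with other IRF proteins for their sites, at 51.3, 86.1 and 54.6 CPM in saline, 132, 74.8 and 60.9 CPM in ASO and 152, 157 and 148 CPM in OTV animals. All OTV animals lay above the other 6, by 1.21 on the log2 scale against saline (SE 0.27, adjusted p = 0.0317 by edgeR's quasi-likelihood test). The call was lost without saline replicate 1 or 3 or any 1 OTV animal, with adjusted p from 0.062 to 0.149. OPC markers in the neurons summed to 111, 329 and 77.8 CPM in saline, 522, 63.5 and 117 CPM in ASO and 402, 302 and 370 CPM in OTV animals, and their part in the IRF2 result was not tested. No member was called in neurons in ASO against saline (background 0%) or in OTV against ASO (background 5.23%). At an unadjusted p under 0.05 there were 0 members in the first, beside 2.47% of all genes, and 3 in the second, beside 24.3%. DESeq2 called 0 in both, beside 0.0338% and 5.48% of all genes to which it gave an adjusted p.

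Partners of the pathway outside the members were counted from 4 lists. In myeloid nuclei, OTV against saline called 1 of 22 tested sensing partners, 3 of 13 regulators of interferon signalling, 1 of 27 other interferon-inducible genes and 1 of 7 inflammasome partners, beside 12% of all genes tested. After ASO 0 of these were called in myeloid nuclei, beside 0.197% of all genes tested. The sensing partner was IRAK3, an inhibitor of Toll-like receptor signalling, at 428, 357 and 304 CPM in saline and 262, 192 and 234 CPM in OTV animals, without overlap (-0.71, SE 0.16, adjusted p = 0.0169 by edgeR's quasi-likelihood test). Among the regulators, PIAS1 and PIAS3, which inhibit activated STAT proteins, were lower (-0.65, SE 0.12 and -0.97, SE 0.23, adjusted p = 0.00915 and 0.0241). TYK2, the fourth Janus kinase, rose in all 4 tested types in OTV against saline. Its myeloid level was 72.5, 98.6 and 61.1 CPM in saline and 132, 117 and 127 CPM in OTV animals, without overlap (0.64, SE 0.17, adjusted p = 0.0364). The interferon-inducible gene was SP110, a nuclear body protein, at 363, 394 and 484 CPM in saline and 653, 678 and 821 CPM in OTV animals (0.74, SE 0.15, adjusted p = 0.0111). GSDMD, the pore protein of pyroptosis, was at 6.44, 5.05 and 8.63 CPM in saline and 21.8, 16.1 and 30.5 CPM in OTV animals, without overlap (1.72, SE 0.34, adjusted p = 0.0101). OTV against ASO in myeloid nuclei called MAVS, SP110 and GSDMD higher. It called IRAK3, PIAS1, RNASEH2C, RSAD2, GBP3 and PYCARD lower, beside 20.5% of all genes tested in either direction. The interferon-inducible gene RSAD2 fell by 1.43 (SE 0.42, adjusted p = 0.036 by the same test). MAVS was called higher in this contrast in oligodendrocytes (0.40, SE 0.13), OPCs (0.59, SE 0.17) and astrocytes (0.77, SE 0.20) too.

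Outside myeloid nuclei, OTV against saline called 7 of 28 other interferon-inducible genes in oligodendrocytes, 5 higher (TAP1, SP110, DDX60, DDX60L and SP100) and 2 lower (GBP3 and HERC5), beside 19.2% of all genes tested. In OPCs 1 of 23 was called, lower, beside 22.1%, and in astrocytes 2 of 22, 1 higher and 1 lower, beside 15.4%. Of the regulators, 2 of 15 were called in oligodendrocytes (1 higher, 1 lower), 6 of 14 in OPCs (3 higher, 3 lower) and 3 of 13 in astrocytes (1 higher, 2 lower). GBP3 and PTPN6 were lower in all 3 types and are described because of their values. GBP3, an interferon-induced guanylate-binding protein, was at 58.8, 71.9 and 73.7 CPM in the OPCs of saline and 7.52, 16.9 and 10.1 CPM of OTV animals (-2.59, SE 0.29, adjusted p = 0.000263 by edgeR's quasi-likelihood test). In myeloid nuclei GBP3 was not called in OTV against saline, and it was lower in OTV against ASO (-1.22, SE 0.36, adjusted p = 0.0409). PTPN6, a phosphatase that dampens cytokine receptor signalling, was at 25.3, 32.8 and 26.4 CPM in the OPCs of saline and 10.2, 9.33 and 8.55 CPM of OTV animals (-1.52, SE 0.18, adjusted p = 0.000241). Neither gene's groups overlapped in OPCs. In the interaction the myeloid change of both lay above that of the other types by edgeR's quasi-likelihood test. For GBP3 the difference was 2.07 in OTV against saline (SE 0.40, adjusted p = 0.00642) and 1.41 in OTV against ASO (SE 0.40, adjusted p = 0.0357). For PTPN6 it was 2.22 (SE 0.20, adjusted p = 3.49e-07) and 2.41 (SE 0.19, adjusted p = 1.10e-07), in that order. After ASO the only gene of the 4 lists called against saline within any of the 4 cell types was CD274, the interferon-inducible checkpoint ligand PD-L1, in oligodendrocytes. The share of all genes tested that was called there was 0.394%, and it was 0.0147% to 0.262% in the other types. In the interaction for ASO against saline, the sensing partner NOD1 was also called (-0.86, SE 0.20, adjusted p = 0.0434 by edgeR's quasi-likelihood test). NOD1 is a receptor for bacterial peptidoglycan. CD274 in oligodendrocytes was at 3.54, 4.51 and 2.71 CPM in saline, 19.4, 14.5 and 26.4 CPM in ASO and 5.14, 6.41 and 4.68 CPM in OTV animals, with all ASO animals above the other 6 (2.39, SE 0.27, adjusted p = 0.0138). In the other types it was higher after ASO without a call. The rise was 2.40 in astrocytes (SE 0.45, adjusted p = 0.211), 1.19 in OPCs (SE 0.32, 0.186) and 1.29 in myeloid nuclei (SE 0.39, 0.266). In OTV against ASO CD274 was called lower in oligodendrocytes (-1.80), OPCs (-2.11) and astrocytes (-3.38), but not in myeloid nuclei (-0.45). The same contrast called 7 of 28 other interferon-inducible genes higher and 4 lower in oligodendrocytes, beside 26.3% of all genes tested. In OPCs it was 3 of 23 higher and 5 lower, beside 27.2%. Astrocytes had 1 of 22 higher and 3 lower, beside 22%. Of 23 sensing partners in oligodendrocytes, 2 were higher (DHX58 and MAVS) and 4 lower (CIITA, STING1, NOD1 and TBK1).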

How the data were processed

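Nuclei of 9 animals were profiled with 10x Genomics droplet libraries. The authors deposited 1 matrix of raw UMI counts and a table with each nucleus's animal, cell type, cluster, total UMI count and doublet score. Totals equal the matrix sums in all 79994 nuclei. The highest deposited doublet score is 0.865, and no doublet filter was added. Per the submitters' processing notes, Cell Ranger 6.1.2, Seurat 4 and the human build GRCh38.p13 were used, although the features carry macaque Ensembl identifiers. A strand setting was not given in the sources used here. No depth per read is known, so UMI totals stand for depth.

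Counts were summed per animal and cell type. CPM are these counts per 1000000 of the sum. Types with at least 20 nuclei in every animal were tested with edgeR 4.0.16 in R 4.3.3 (quasi-likelihood test, TMM, filterByExpr by group, robust, all 9 animals), and DESeq2 1.42.0 was an alternative. The 3 contrasts share groups. Benjamini-Hochberg adjustment ran over every gene of a fit, and an adjusted p under 0.05 made a call. The test was checked on simulated counts. Labels name separate animals. Gene neighbours came from RefSeq, where 65 of the 67 members described matched by symbol. IFIT, OAS, MX and NLRP genes have close relatives between which reads may be split.

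Members and lists were chosen with earlier results of these data known. Named were members called in myeloid nuclei (up to 10 per contrast), up to 6 per contrast in other types, those called in at least 3 types, a fixed set in myeloid nuclei and up to 3 genes per other list. IFNAR2 was not analysed here. The neuron tests and the choice of which uncalled members to vary were added after seeing the data. Results for some features, 1 of them a member, are not reported here, nor is a fit with 1 further covariate, added after seeing the data, in which some calls in each of the 4 cell types were lost. No call is therefore described as holding in every fit that was tried.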

Additional observations from a re-analysis of the deposited data

Results flagged for a closer look

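The 3 results below met the criterion of a change that differs between myeloid nuclei and the other 3 cell types by a test of the difference itself, all in OTV against ASO. For JAK2 the log2 change in myeloid nuclei minus the mean change elsewhere was -0.64. For IFIT3 it was 1.7, with 99 UMIs in all myeloid nuclei. For STAT2 it was -0.6. Of these 3, the JAK2 difference alone was called in all 11 alternative fits of the interaction, 9 of them without 1 animal.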

How the results depend on the processing

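Over 18 counts of called members, 179 alternative values lay within 1.5 times the reported count and 58 did not. Over 49 single-gene results, 582 of 710 alternative values kept direction and side of the threshold, 102 lost the call and 26 changed sign, the last all in members that were not called in myeloid nuclei. The cause of a loss was not tested. No paired analysis was possible because the labels give no replicate numbers that link animals of different groups. Scaling by DESeq2's size factors left the 15 counts for which it was run within 1.5 times. Myeloid depth was lowest in OTV replicate 3, and members with few UMIs, such as IRF7 and ISG15, could not show small differences.

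The share of all genes called in the same fit follows each count in parentheses. In ASO against saline, DESeq2 called 1 member in myeloid nuclei (1.28%) and 1 in OPCs (1.21%), cluster 9 alone called 1 in myeloid nuclei (0.417%), and no low-count filter gave 1 in OPCs (0.371%). In OTV against saline, myeloid nuclei had 2 called with no filter (6.15%) and 2 after thinning (9.87%), and DESeq2 called 5 members in oligodendrocytes (21.9%) and 3 in neurons (7.08%). In OTV against ASO, myeloid nuclei had 3 called with DESeq2 (17.6%), 3 with no filter (10.1%), 3 after thinning (17.9%) and 2 with the compared groups alone (22.8%). Thinning left 2 in oligodendrocytes (22.8%) and 2 in OPCs (24.1%), and no filter left 1 in the interaction (2.65%).

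Leaving out each animal in turn gave these ranges of called members, with the range of the share of all genes called in parentheses. For ASO against saline they were 0 to 1 in OPCs (0.013% to 0.229%), 0 to 1 in the interaction (0.215% to 0.581%) and 0 to 0 in myeloid nuclei (0.0895% to 0.426%), oligodendrocytes (0.0844% to 0.381%), astrocytes (0.00703% to 0.0352%) and neurons (0% to 0.0102%). For OTV against saline they were 0 to 3 in myeloid nuclei (5.38% to 14.7%), 0 to 5 in oligodendrocytes (11.5% to 17.9%), 3 to 7 in OPCs (13.6% to 20.5%), 1 to 2 in astrocytes (6.32% to 14.4%), 0 to 3 in the interaction (0.757% to 4.24%) and 0 to 4 in neurons (0.0609% to 8.65%). For OTV against ASO they were 0 to 2 in myeloid nuclei (10.1% to 22.8%), 2 to 11 in oligodendrocytes (18% to 27.4%), 3 to 6 in OPCs (18.2% to 27.3%), 1 to 3 in astrocytes (11.4% to 22.4%), 1 to 6 in the interaction (2.95% to 6.73%) and 0 to 2 in neurons (0.0713% to 5.98%).

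Myeloid log2 differences near 0 changed sign. In cluster 7 alone ASO against saline gave 0.064 for IRF9, 0.050 for MX1, 0.14 for IFIH1 and -0.25 for TLR7, and cluster 9 gave 0.0046 for IRF8. Thinning gave -0.14 for TLR7. In OTV against saline cluster 9 gave -0.10 for IFNAR1 and 0.0053 for TLR7. Leaving out single animals, ASO against saline ranged from -0.50 to 0.10 for IRF9, -0.93 to 0.45 for IRF7, -0.32 to 0.30 for IRF8, -0.52 to 0.61 for MX1, -0.26 to 0.20 for IFIH1 and -0.27 to 0.15 for TLR7. OTV against saline ranged from -0.045 to 0.18 for IFNAR1, -0.22 to 0.76 for IRF7 and -0.15 to 0.49 for IRF8.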

Other observations

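Some members stood out in 1 animal. NLRP7, a member of the NLR family known from oocytes and early embryos, was at 6.87 CPM in the myeloid nuclei, 3.83 CPM in the oligodendrocytes, 2.97 CPM in the OPCs and 3.84 CPM in the astrocytes of ASO replicate 2. In the other 8 animals it was at 0.781 CPM or less in each of these types.

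IFI27, an interferon-induced mitochondrial protein, was at 264 CPM in the neurons, 24.9 CPM in the astrocytes and 12 CPM in the oligodendrocytes of OTV replicate 1. Saline replicate 1 came next in each of these types, at 26.3, 12.1 and 5.02 CPM. The other 7 animals ranged from 0 to 22.3 CPM in neurons, the highest being saline replicate 2. Endothelial markers in neurons summed to 1199 CPM in OTV replicate 1. They summed to 1280 CPM in ASO replicate 1 and 552 CPM in saline replicate 2, both at 22.3 CPM or less of IFI27. The others held 4.55 to 221 CPM of these markers. In OTV replicate 1 the same markers summed to 6.48 CPM in astrocytes and 7.87 CPM in oligodendrocytes. Their part in the IFI27 level was not tested.

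Within myeloid nuclei most members differed little between the authors' clusters. Of the members with over 300 UMIs, TLR2 was lower in cluster 7 than in cluster 9, at 30.5 against 43.5 CPM over the 9 animals, and STAT5B was higher, at 93.0 against 70.2 CPM. The clusters were made from these nuclei, so these values are a description.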
